A study of Homo sapiens with 15 samples.

Results

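MCF-10A cells edited with both NF1 guides together were compared with MCF-10A cells that received the empty vector. MCF-10A is an immortalized, non-tumorigenic human breast epithelial line. The members were chosen by label: 3 libraries labelled with guides 1 and 2 and 3 labelled empty vector, 6 of the 15 RNA-seq libraries in the series. The comparison covered the 17457 genes, of 60721 in the table, that passed an expression filter (edgeR's filterByExpr with genotype as the group). The other 9 libraries, with 3 per genotype, came from unmodified parental cells, cells with guide 1 only and cells with guide 2 only, and were used as further reference points. All 5 genotypes were the same line, grown without drug treatment in medium with horse serum, EGF, hydrocortisone, cholera toxin and insulin. The labels give biological replicates of each genotype but do not say whether an edited or empty-vector population was 1 clone or a pool, nor what the vector carries. A feature of a single founder clone and an effect of the guides therefore cannot be told apart, and p-values measure the spread between replicate libraries of each population only.

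Neurofibromin, the product of NF1, speeds the hydrolysis of GTP on RAS and so switches RAS from its active to its inactive form. Loss of neurofibromin leaves RAS active for longer and can raise signalling through RAF, MEK and ERK, and germline NF1 mutation causes neurofibromatosis type 1, which carries a raised risk of breast cancer. In breast epithelium, growth factor receptors upstream of RAS include EGFR, whose ligand EGF is a standard supplement of MCF-10A medium.

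The deposited counts summed to between 46129559 and 57121914 per library in the 6 libraries compared and to between 46129559 and 78976917 in all 15. Replicates differed by more than counting noise: 24.6% to 40.2% of genes in pairs of both-guides libraries and 25.3% to 49.2% in pairs of empty-vector libraries lay beyond the noise limit that chance puts at 5%, and empty-vector replicate 3 was in both of the 2 widest empty-vector pairs. Guide 2 replicate 2 stood apart from every other library, at 91.89 on a first principal component where the other guide 2 libraries were at -45.96 and -47.8. That library is outside the comparison but enters the shared estimate of spread, and counts of calls in the gene lists that it changes are given with and without it. As background to the counts without it, that fit called 306 of all 17849 tested genes higher and 890 lower. The empty-vector population also differed from parental cells, with 762 genes called (4.37% of those tested), 267 higher in parental cells (1.53%) and 495 lower (2.84%), so the choice of control bears on each result below.

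NF1 mRNA was reduced to 22.7% of the empty-vector level. In CPM, which is a gene's count divided by the library's total count and scaled to a common total, NF1 measured 28.9, 29.4 and 26.0 in both-guides replicates 1 to 3 and 115, 123 and 133 in the empty-vector replicates. It measured 159, 141 and 153 in parental cells, 43.6, 47.3 and 51.3 with guide 1 and 26.96, 31.4 and 29.8 with guide 2. Every both-guides library lay below every unedited library, and the both-guides and guide 2 libraries overlapped. The log2 fold change against empty vector was -2.16 (SE 0.0912, adjusted p = 8.22e-08 by edgeR's quasi-likelihood test with Benjamini-Hochberg adjustment), and against parental cells -2.41 (adjusted p = 2.25e-08). A two-sided exact permutation test of the CPM values gave p = 0.1 for 3 against 3, the smallest value that design allows, and p = 0.0238 against the 6 unedited libraries. Against the mean of the 2 single-guide lines the difference was -0.42 (adjusted p = 0.0402), a call that was lost in 13 of 23 alternative fits, where the adjusted p reached 0.353. NF1 lies on chromosome 17 at 31094927 to 31382116 of GRCh38, plus strand, and of the 14 tested genes in the list of NF1 and its neighbours only NF1 was called, with a list median of 0.00. Whether the remaining message encodes full-length neurofibromin was not tested.

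**Figure D1:**
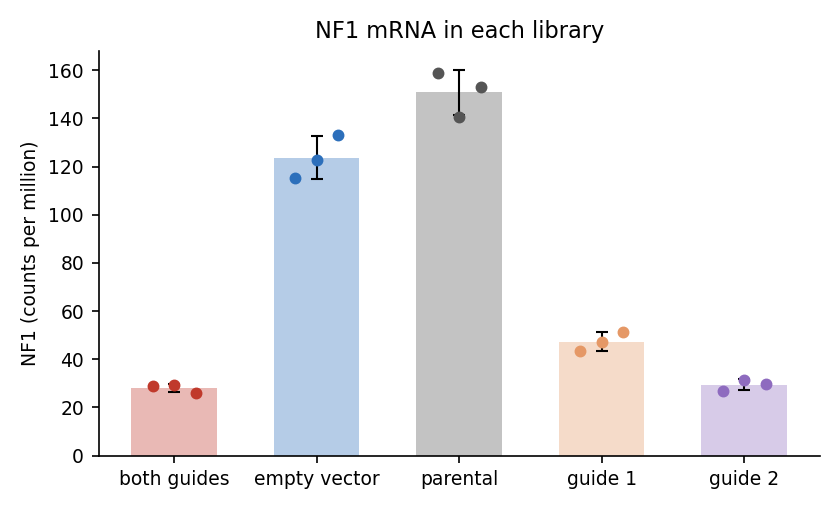
NF1 expression in CPM (vertical axis, from 0) in each of the 15 libraries, grouped by genotype, with the group mean and SD. The 3 both-guides libraries sit between 26.0 and 29.4, below the 6 empty-vector and parental libraries, which start at 115.

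The both-guides cells differed from empty vector more often by lower than by higher expression: 168 genes, NF1 included, were called (adjusted p under 0.05, 0.962% of those tested), of which 47 were higher (0.269%) and 121 were lower (0.693%). Protein-coding genes made up 160 of the 168. The median log2 fold change was 0.93 among the genes called higher and -0.99 among those called lower, and 23 higher and 60 lower genes changed by at least 1 on the log2 scale. The 2 groups did not overlap for any of the 168, as held for 37.7% of all tested genes, and 70 of them lay apart from all 6 unedited libraries (6.91% of tested genes). The calls rest on the difference between the same libraries, so these shares only describe the called genes. The count depended on which other libraries shared the estimate of spread. It was 1196 of 17849 genes without guide 2 replicate 2 (306 higher, 890 lower), with all 168 still called. Without guide 1 replicate 3 it was 605, and the balance turned to 319 higher and 286 lower. It fell to between 21 and 77 when any 1 of the 6 compared libraries was left out, and was 3054 of 16298 genes (18.7%), with 1161 higher (7.12%) and 1893 lower (11.6%), when only these 6 libraries were fitted.

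The control mattered for most of the called genes. For 97 of the 121 genes called lower, the 3 empty-vector libraries lay above all 12 other libraries, parental and single-guide included, against 4.3% of all tested genes. For 26 of the 47 called higher, the empty-vector libraries lay below all 12 others, against 2.4%. The both-guides libraries lay above all 12 others for 12 of the called genes (0.59% of tested genes) and below all 12 for 7 (0.378%). Since the fold change chose these genes, the shares are a description of which population stood apart.

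**Figure D2:**
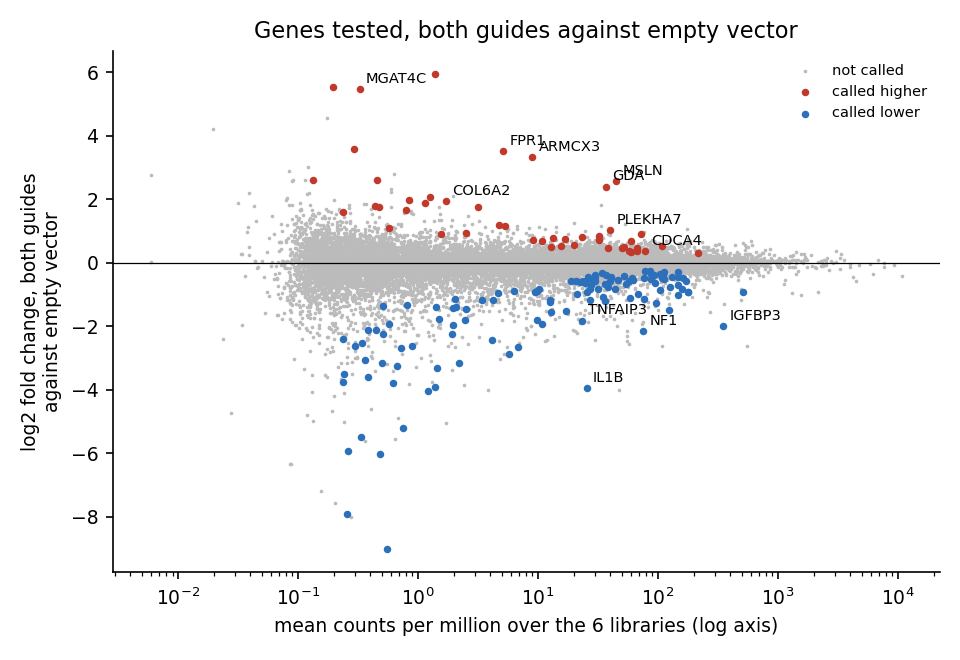
Log2 fold change of both guides against empty vector (vertical axis) by mean CPM over the 6 libraries (horizontal axis, log scale), with 1 point for each of the 17457 tested genes. Coloured points are the 47 genes called higher and the 121 called lower, and the named genes are described in the text.

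The genes that fell most, among called genes of at least 2 CPM on average, included IL1B, IGFBP3, TNFAIP3 and COL1A1. IL1B encodes the inflammatory cytokine interleukin-1 beta. Its CPM was 3.08, 3.16 and 3.16 with both guides and 35.9, 32.6 and 75.1 with empty vector, so the edited cells held 6.55% of the control level (log2 fold change -3.96, SE 0.761, adjusted p = 0.0305). Parental cells, at 4.54, 1.13 and 4.07, lay around the both-guides values, and the high group was the empty vector. The parental cells were themselves lower than empty vector by a log2 difference of -3.92 (adjusted p = 0.0153).

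IGFBP3, a secreted protein that binds insulin-like growth factors, measured 144, 140 and 142 CPM with both guides against 507, 488 and 678 with empty vector (log2 fold change -1.999, SE 0.358, adjusted p = 0.0225). Parental cells spanned 154 to 308 CPM, between the other groups and without overlap with either. COL1A1, the alpha-1 chain of type I collagen, was at 5.31, 4.28 and 3.75 CPM against 12.3, 13.6 and 20.0 (-1.81, adjusted p = 0.0293). Its edited and control libraries did not overlap. HSD11B1, which regenerates cortisol from cortisone, measured 1.97, 1.69 and 1.95 CPM against 12.9, 13.4 and 8.71 (-2.66, adjusted p = 0.0485). JCAD, a junction-associated protein, measured 1.32, 1.52 and 1.38 CPM against 9.86, 11.7 and 8.84 (-2.87, adjusted p = 0.0101). For both genes every edited library lay below every empty-vector library, while the parental range, 1.82 to 5.10 CPM for HSD11B1 and 1.51 to 2.93 CPM for JCAD, overlapped the edited one.

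ALPK2, an alpha-kinase family member, measured 0.542, 0.428 and 0.393 CPM against 3.99, 3.98 and 3.97 (-3.15, adjusted p = 0.00387) and stayed called in all 24 alternative fits. Parental ALPK2, at 1.736, 0.7833 and 0.5412 CPM, overlapped the edited range (-1.168, adjusted p = 0.294). It was itself lower than empty vector (-1.985, adjusted p = 0.0134). RNF150, a RING-finger protein, fell by 2.44 on the log2 scale (adjusted p = 0.0267). PLCH2, a phospholipase C, was at 4.49, 3.83 and 5.18 CPM against 15.3, 15.4 and 20.4 (adjusted p = 0.0132). MAP3K7CL measured 1.04, 0.998 and 1.29 CPM against 3.36, 2.93 and 5.20 (-1.81, adjusted p = 0.0103). SDCBP2, a PDZ-domain adaptor, showed a different order of groups: 6.27, 6.88 and 6.81 CPM with both guides, 17.0, 17.5 and 23.3 with empty vector, and 1.68, 1.25 and 3.51 in parental cells. It was thus lower than empty vector (-1.56, adjusted p = 0.0305) while every both-guides library lay above every parental library.

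Among called genes of at least 2 CPM on average, the highest fold changes were those of FPR1, ARMCX3 and MSLN. MSLN encodes mesothelin, a surface glycoprotein of mesothelium and several carcinomas. It measured 75.7, 75.6 and 81.7 CPM with both guides and 12.6, 12.3 and 13.8 with empty vector, which is 602% of the control (log2 fold change 2.57, SE 0.315, adjusted p = 0.00381). Parental cells, at 29.2, 27.6 and 30.7 CPM, lay between the 2 groups with no overlap. ARMCX3, an armadillo-repeat protein of the outer mitochondrial membrane, measured 16.6, 17.9 and 14.6 CPM against 1.52, 1.64 and 1.64 (3.33, adjusted p = 0.00389). Guide 2 libraries reached 23.5, 5.26 and 24.7 CPM for ARMCX3, so its high level was shared with 2 of the 3 guide 2 libraries. Parental ARMCX3, at 6.65, 6.99 and 6.08 CPM, lay between the edited and empty-vector values. It was itself above empty vector (2.005, adjusted p = 0.0196), and both guides against parental cells was not called (1.324, adjusted p = 0.205).

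FPR1, the formyl peptide receptor, rose from 0.893, 1.16 and 0.392 CPM to a both-guides range of 9.08 to 9.89 (3.52, SE 0.671, adjusted p = 0.0293). Parental libraries ranged from 3.68 to 28.0 CPM and overlapped the edited group. GDA, guanine deaminase, measured 59.9, 64.7 and 61.9 CPM against 15.2, 14.1 and 5.65 (2.40, adjusted p = 0.0296). PLEKHA7, an adherens junction protein, measured 53.5, 53.8 and 54.2 CPM against 27.6, 27.5 and 23.4 (1.02, adjusted p = 0.00167), and lay above all 6 unedited libraries, whose highest value was 45.1. IGFBP6, another binder of insulin-like growth factors, measured 91.6, 95.8 and 99.3 CPM against 56.7, 56.9 and 38.03 (0.90, adjusted p = 0.0103). GPAT3, an enzyme of triglyceride synthesis, rose by 1.14 (adjusted p = 0.029). Every edited library was above every empty-vector library for each of these genes.

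Of the other genes in the top 12, PLEKHH2 measured 5.33, 5.06 and 4.27 CPM against 1.31, 1.49 and 1.44 (adjusted p = 0.0172). GULP1, an engulfment adaptor, rose by 0.93 (adjusted p = 0.0391). PITPNC1, a phosphatidylinositol transfer protein, rose by 0.84 (adjusted p = 0.0305), and GLB1L2, a galactosidase-like gene, by 0.82 (adjusted p = 0.00566). JAM3, a junctional adhesion molecule, was 1.19 higher (adjusted p = 0.0305). NF1, SYNM, COL6A2, MSLN, ARMCX3, PLEKHA7, ALPK2 and GLB1L2 were the 8 of 40 named called genes that stayed called in every alternative fit run. The minimum change of 1 on the log2 scale was a cut on the main fit, and of these 8 GLB1L2, at 0.82, lay under it. Without both-guides replicate 2 these 8 were the only named genes still called, and edgeR called 21 genes in all.

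**Figure D3:**
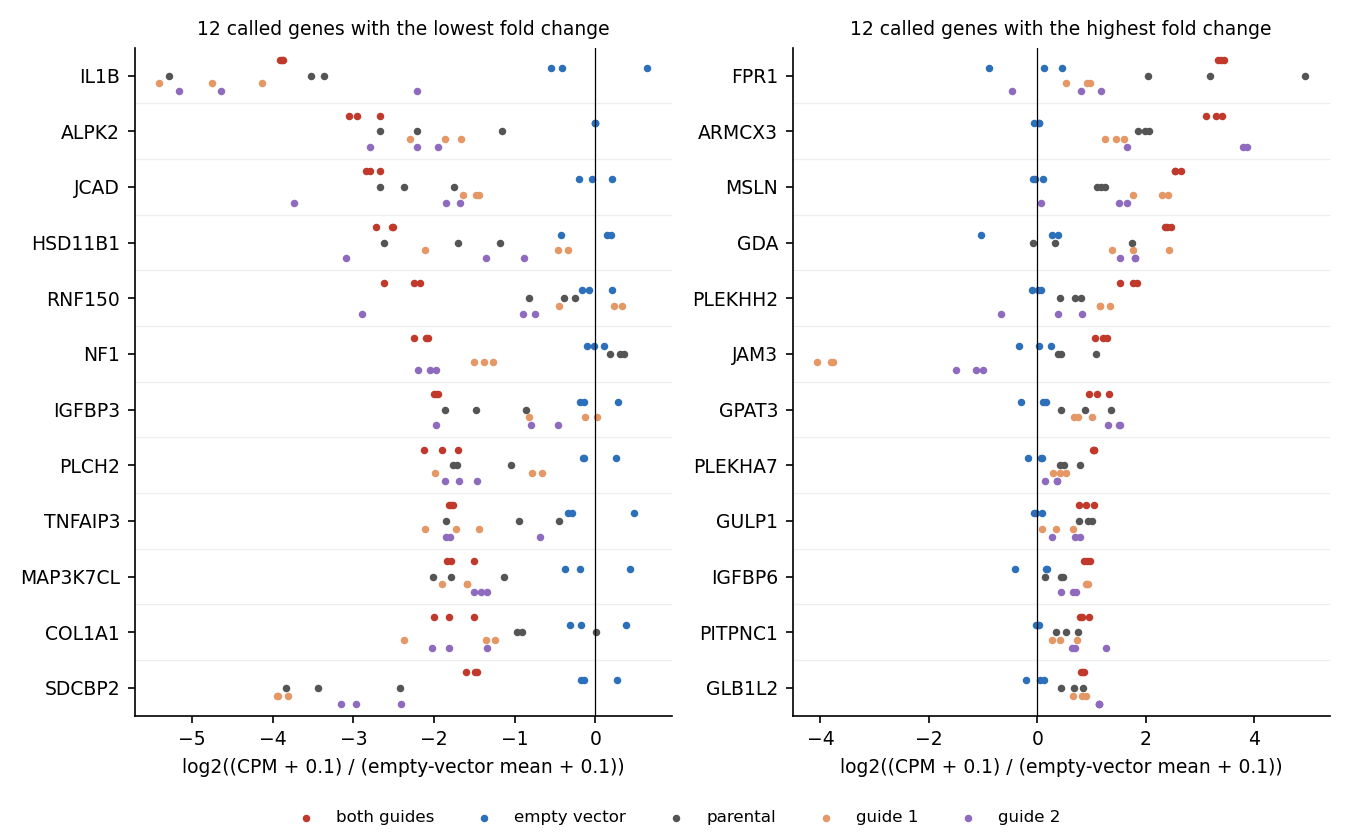
Values of the 12 genes with the lowest (left) and the 12 with the highest (right) fold change among called genes of at least 2 CPM on average, in each of the 15 libraries, as log2 of CPM plus 0.1 relative to the empty-vector mean plus 0.1, coloured by genotype. All both-guides points lie on the same side of all empty-vector points, while parental points often lie near the both-guides points, as for IL1B.

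Some genes of inflammatory signalling were looked at singly. Apart from TNFAIP3 and TAP1 the genes in this paragraph were picked from the called genes after their values were seen, no list of NF-kappaB genes was counted, and nothing follows from them for such genes as a group. TNFAIP3, also known as A20, is a feedback inhibitor of NF-kappaB, a transcription factor family of the inflammatory response. It measured 10.2, 10.6 and 10.4 CPM with both guides against 29.4, 28.5 and 50.3 with empty vector (log2 fold change -1.82, adjusted p = 0.0442). NFKBIZ, an inducible nuclear IkappaB protein, measured 6.76, 6.97 and 6.04 CPM against 13.4, 12.2 and 11.3 (-0.92, adjusted p = 0.0272). TNIP1, a partner of A20, measured 114, 116 and 118 CPM against 197, 197 and 218 (-0.84, adjusted p = 0.0191). The groups did not overlap for these 3 genes, as held for all 168 called genes and for 37.7% of all tested genes. ICAM1, a leukocyte adhesion ligand, measured 14.6, 13.5 and 14.6 CPM against 27.1, 25.9 and 30.5 (-0.99, adjusted p = 0.029), and SOD2, the mitochondrial superoxide dismutase, 97.7, 108 and 88.6 CPM against 202, 195 and 187 (-1.01, adjusted p = 0.0134). Parental ICAM1, at 6.78 to 10.6 CPM, was lower than in either group. TAP1, which pumps peptides into the endoplasmic reticulum for MHC class I loading, measured 27.8, 28.8 and 27.6 CPM against 40.7, 42.2 and 49.4 (adjusted p = 0.0222), and parental cells at 23.8 to 31.5 CPM overlapped the edited cells.

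TNFAIP3 and NFKBIZ are known targets of NF-kappaB, so the 250 bases before the RefSeq start (build GRCh38.p14) were searched for the NF-kappaB consensus on both strands in the 137 called genes with an entry. A match was present in 12 of 103 genes called lower (11.7%) and 4 of 34 called higher (11.8%), against 11.5% of the promoters of 11761 tested genes and 9.57% of all 27305 promoters in the table. The share was therefore near the background. TGANTCA, the core letters of the AP-1 element, was found in 9 of the genes called lower (8.74%) and 2 called higher (5.88%), against 4.4% of tested genes and 6.6% of all promoters. Windows of 30 bases are shown for the 3 genes above that hold a match, in capitals, because they are the inflammatory genes in which the letters occur. The TNFAIP3 window is chr6:137867188-137867217 on the plus strand and holds 2 matches, the NFKBIZ window is chr3:101827757-101827786 on the plus strand, and the TAP1 window is chr6:32853757-32853786 on the minus strand.
TNFAIP3: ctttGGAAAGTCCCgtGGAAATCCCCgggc
NFKBIZ: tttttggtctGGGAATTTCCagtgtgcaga
TAP1: gcctgttcctGGGACTTTCCgagagccccg
The first match in the TNFAIP3 window begins 67 bases before the start of that gene. The matches of NFKBIZ and TAP1 begin 223 and 72 bases before their starts. A match describes letters only, and binding was not measured.

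The interleukin-1, cytokine and chemokine list had 1 of 15 tested members called, IL1B, with a median log2 fold change of -1.05 against a median of -0.001 over all tested genes. CXCL8, a neutrophil chemokine, measured 40.2, 44.7 and 44.7 CPM against 126, 115 and 83.5 (-1.34, adjusted p = 0.126), and CXCL1 differed by -1.25 (adjusted p = 0.127). Both were separated between groups in all 6 libraries without passing the test. Without guide 2 replicate 2 the list had 4 members called lower (890 of all 17849 genes), and 9 in the fit of the 6 libraries alone (11.6% of all genes). Against parental cells the list median was 0.09. Of 14 tested genes of MHC class I and antigen processing only TAP1 was called, with a median of -0.25 against empty vector and 0.04 against parental cells. Without guide 2 replicate 2, 5 were called lower than empty vector (890 of all 17849 genes). Of 18 tested interferon-stimulated genes CMPK2, a mitochondrial nucleotide kinase, was called higher (1.11, 1.19 and 1.32 CPM against 0.508, 0.313 and 0.298; 1.67, adjusted p = 0.0272). The interferon list had a median of 0.09, and MX1 and IFIT1 differed by 0.46 and 0.28 with adjusted p of 0.648 and 0.856. No complement gene was called among 12 tested, and 2 were called lower without guide 2 replicate 2.

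Of 11 tested RAS-GAPs and other RAS brakes NF1 was the only member called, with a list median of -0.15. Without guide 2 replicate 2, 3 were called lower and 1 higher, against 890 and 306 of all 17849 genes. SPRED2, a partner of neurofibromin that brings it to the membrane, measured 40.9, 40.3 and 40.7 CPM against 48.9, 49.6 and 48.3 (-0.29, adjusted p = 0.0808). SPRED1 differed by -0.09 (adjusted p = 0.769). None of 16 genes of RAS, RAF, MEK and ERK kinases was called (median -0.07), and 1 was called lower without guide 2 replicate 2.

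Of transcripts that report ERK output, none of 17 was called, and the median was 0.15 against empty vector and 0.19 against parental cells. Against empty vector 14 of the 17 had a positive fold change, as had 8695 of all 17457 tested genes. FOSL1, an AP-1 subunit induced by ERK, measured 117, 115 and 138 CPM against 82.6, 78.7 and 84.9 (0.57, adjusted p = 0.0589). Parental FOSL1, at 135.3, 121.5 and 114.5 CPM, overlapped the edited range (0.006, adjusted p = 0.994). It was itself above empty vector (0.562, adjusted p = 0.0307). SPRY2, a feedback inhibitor of receptor signalling, measured 19.0, 21.3 and 21.8 CPM against 16.1, 16.1 and 13.6 (0.42, adjusted p = 0.0566). For FOSL1 and SPRY2 all edited libraries lay above all empty-vector libraries. DUSP6, the ERK phosphatase, went the other way against empty vector, at 44.2, 42.6 and 41.1 CPM against 57.9, 57.0 and 57.3 (-0.45, adjusted p = 0.583). Parental DUSP6, at 36.34, 18.71 and 29.01 CPM, lay below every edited library (0.613, adjusted p = 0.551). ETV4 and ETV5, ERK-responsive transcription factors, differed by 0.15 and 0.06 (adjusted p = 0.738 and 0.933). In the fit of the 6 libraries alone 5 members were called higher and 2 lower, where 7.12% of all genes were called higher and 11.6% lower. Without guide 2 replicate 2 the counts were 2 and 1, against 306 and 890 of all 17849 genes. Among 11 EGF receptor family members and ligands none was called, and 1 was called lower without guide 2 replicate 2. EGFR measured 449, 438 and 404 CPM against 497, 538 and 560 (-0.33, adjusted p = 0.694), and HBEGF, an EGFR ligand, 6.22, 5.88 and 6.58 CPM against 17.1, 15.0 and 24.9 (adjusted p = 0.061).

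Basal epithelial genes were lower in every both-guides library than in any empty-vector library, yet none passed the test. All 15 tested members had non-overlapping groups with both guides lower, as had 3007 of all 17457 tested genes. The list median was -1.51 and the lowest adjusted p 0.108. KRT14, a basal keratin, measured 34.6, 31.0 and 26.0 CPM against 118, 129 and 309 (-2.63, adjusted p = 0.396), and KRT17 181, 159 and 139 CPM against 733, 816 and 1327 (-2.61, adjusted p = 0.301). TP63, the basal lineage transcription factor, measured 10.99, 9.97 and 7.83 CPM against 43.1, 41.4 and 68.0 (-2.43, adjusted p = 0.569). These genes also varied widely among the other libraries: parental KRT14 was 545, 37.8 and 265 CPM, parental TP63 was 37.4, 0.815 and 19.9, and guide 2 replicate 2 held 1147 CPM of KRT14 against 18.9 and 17.4 in its replicates. Without guide 2 replicate 2 the list had 5 members called lower (890 of all 17849 genes), and 14 were called lower when only the 6 libraries were fitted (11.6% of all genes). Without empty-vector replicate 3 the median was -0.89. Against parental cells it was -0.54.

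Of 17 tested keratinocyte-like differentiation genes none was called, with a median of -3.00, or -2.64 with KRT4, which had no count in the edited cells, set at a floor of 3 counts. Without guide 2 replicate 2, 3 were called lower. The median was -1.73 without empty-vector replicate 3, which had the highest level of IVL, the envelope protein involucrin (5.86 CPM against 1.56 and 1.72 in its replicates). Of 18 junction genes JAM3 was called higher and none lower, with a median of -0.98. The junction median was -0.1 against parental cells, and -0.7 for parental cells against empty vector. Without guide 2 replicate 2, 6 junction genes were called lower than empty vector (890 of all 17849 genes), and 12 in the fit of the 6 libraries alone (11.6% of all genes). CDH1, E-cadherin, measured 23.4, 17.3 and 14.8 CPM against 44.1, 46.8 and 127 (-2.01, adjusted p = 0.664), while it was between 0.0192 and 0.158 CPM in the guide 1 libraries. Every both-guides library thus lay above every guide 1 library for CDH1. None of 12 luminal genes was called (median -0.47, or 0.17 against parental cells), with or without guide 2 replicate 2. Their summed level of 3015 to 3202 CPM overlapped the 3035 to 3131 CPM of empty vector.

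Of 15 tested mesenchymal genes 2 were called lower, and the median was -0.04. Without guide 2 replicate 2, 5 were called lower (890 of all 17849 genes). SNAI1, a repressor of E-cadherin, measured 1.24, 1.498 and 1.13 CPM against 2.42, 2.99 and 3.06 (-1.15, adjusted p = 0.0203), and CDH11, a mesenchymal cadherin, 0.173, 0.160 and 0.0894 CPM against 1.49, 1.46 and 3.92 (-4.04, adjusted p = 0.0353). VIM and FN1, vimentin and fibronectin, differed by 0.17 and -0.41 (adjusted p = 0.862 and 0.742). Neither the high-abundance mesenchymal genes nor ZEB1 (0.25, adjusted p = 0.82) passed the test.

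Among 16 collagen and matrix genes COL6A2 was called higher and COL1A1 lower, with a median of -0.47. Without guide 2 replicate 2 the counts were 2 and 4, against 306 and 890 of all 17849 genes. Of 16 matrix proteases and plasminogen genes none was called, with a median of -0.60 against empty vector and -0.03 against parental cells. Lower calls numbered 5 without guide 2 replicate 2 (890 of all 17849 genes) and 8 in the fit of the 6 libraries alone (11.6% of all genes). MMP9, a gelatinase, measured 0.455, 0.535 and 0.393 CPM against 1.30, 1.88 and 18.5 (adjusted p = 0.133), so its fold change rested largely on empty-vector replicate 3. PLAU, urokinase, measured 81.6, 76.9 and 71.4 CPM against 109, 115 and 256 (-1.09, adjusted p = 0.102). Within the 14-gene Notch list, 13 were tested and NOTCH4, a Notch receptor, was called lower (-2.64, adjusted p = 0.0122). Without guide 2 replicate 2, 6 Notch genes were called lower (890 of all 17849 genes). SEMA4B, a transmembrane semaphorin, was the only call among 12 semaphorins, neuropilins and plexins. It measured 37.7, 37.7 and 39.6 CPM against 52.1, 53.6 and 59.9 (-0.55, adjusted p = 0.029). Without guide 2 replicate 2, 3 of the 12 were called lower (890 of all 17849 genes).

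Cell division genes had higher values than in empty-vector cells, and in sum lower values than in parental cells. All 18 mitosis genes had a positive fold change with no overlap between groups, as had 3580 of all 17457 tested genes, and the median was 0.55. Their summed level was 4651 to 5085 CPM with both guides, 2898 to 3707 with empty vector and 5402 to 5992 in parental cells. None was called in the fit of all 15 libraries (lowest adjusted p 0.0938, for CDK1), 1 was called without guide 2 replicate 2, and all 18 were called when only the 6 libraries were fitted. Over all genes the latter fits called 306 of 17849 and 7.12% higher. MKI67, a marker of cycling cells, measured 774, 728 and 695 CPM against 415, 486 and 580 (0.54, adjusted p = 0.229), and 762 to 772 in parental cells. The both-guides and parental ranges of MKI67 overlapped, and against parental cells the mitosis median was -0.21.

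Of the DNA replication genes, CDC45, a component of the replicative helicase, was the only 1 of 18 called (59.4, 61.1 and 63.8 CPM against 47.0, 44.2 and 38.3; 0.49, adjusted p = 0.0472). The list median was 0.38 against empty vector and -0.02 against parental cells. In summed CPM the 18 genes reached 2805 to 2903 with both guides, 2127 to 2220 with empty vector and 2811 to 3039 in parental cells, where the range overlapped that of both guides. Of 16 p53 targets none was called (median -0.27, or 0.11 against parental cells). Without guide 2 replicate 2, 3 were called lower (890 of all 17849 genes). CDKN1A, the cell cycle inhibitor p21, measured 176, 182 and 186 CPM against 264, 269 and 255 (-0.55, adjusted p = 0.397). In parental cells CDKN1A was lower than in either group, at 109 to 130 CPM.

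Metabolic and stress lists stayed near the overall median. The medians were 0.04 for 20 cholesterol and fatty acid synthesis genes, 0.00 for 17 glycolysis and hypoxia genes and 0.00 for 16 ATF4 targets, with no member called; without guide 2 replicate 2, 3 glycolysis and hypoxia genes were called lower. The 14 Hippo targets and TEADs had a median of -0.04 and the 16 TGF-beta pathway genes -0.20, also without calls. Without guide 2 replicate 2 the Hippo list had 1 higher and 2 lower calls and the TGF-beta list 3 lower. RGS4, which limits G-protein signalling, measured 2.80, 3.42 and 3.33 CPM against 0.805, 0.848 and 0.522 (2.11, adjusted p = 0.0576). None of 10 RGS genes was called, against 2 higher and 2 lower without guide 2 replicate 2. That fit called 306 of all 17849 genes higher and 890 lower.

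**Figure D4:**
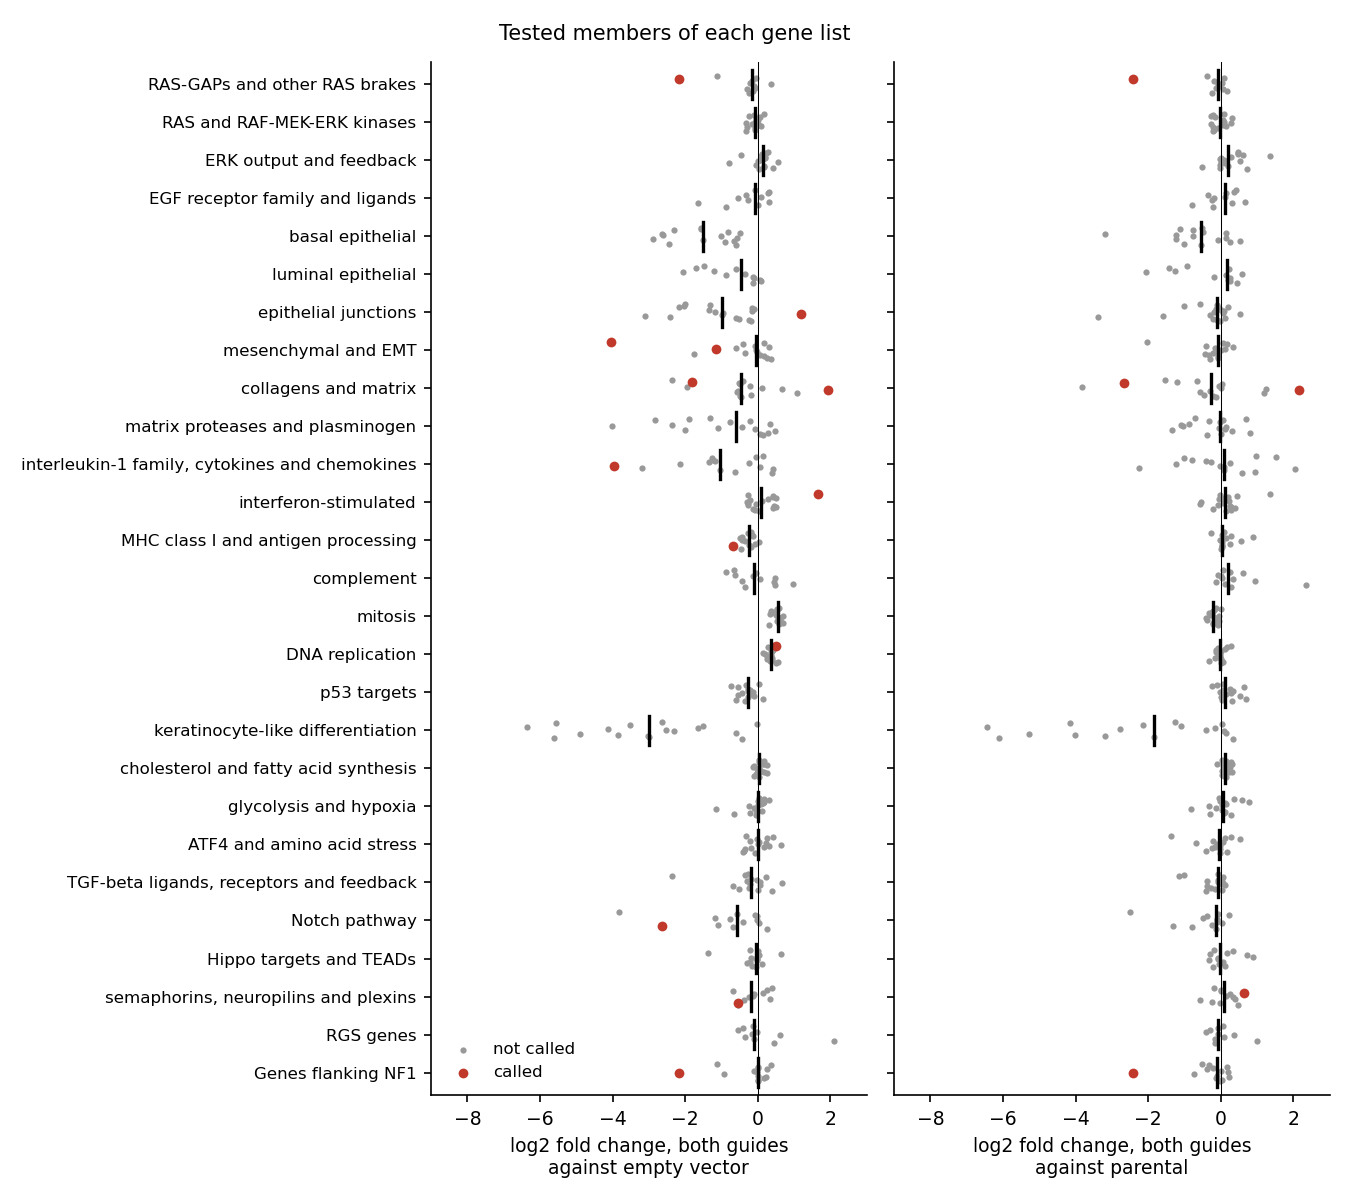
Log2 fold changes of the tested members of each of the 27 gene lists for both guides against empty vector (left) and against parental cells (right), with 1 point per gene and a black bar at the median. The basal median of -1.51 and the mitosis median of 0.55 against empty vector stand beside -0.54 and -0.21 against parental cells.

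Both comparisons in that plot use the same both-guides libraries. Against parental cells 34 genes were called (0.195% of those tested), 19 higher (0.109%) and 15 lower (0.0859%). Called the same way against both controls were 9 genes (0.0516%): 5 higher (0.0286%) and 4 lower (0.0229%). The 4 lower genes were NF1, SYNM, DENND2D and UAP1L1. SYNM, the intermediate filament protein synemin, measured 0.542, 0.784 and 0.697 CPM with both guides, 3.19, 3.41 and 2.93 with empty vector and 1.72, 2.77 and 1.84 in parental cells (log2 fold changes -2.25 and -1.63, adjusted p = 0.00106 and 0.00921). DENND2D, an activator of RAB GTPases, measured 1.37, 1.37 and 1.27 CPM, 3.87, 3.76 and 3.34, and 3.63, 4.07 and 4.65 (-1.47 and -1.61, adjusted p = 0.00851 and 0.00921). In UAP1L1 the both-guides libraries reached 0.947 CPM at most while the unedited libraries started at 1.94 (-1.40, adjusted p = 0.0132 against empty vector). Each of the 3 was low in every edited library relative to all 6 unedited ones.

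The 5 genes higher than both controls were COL6A2, PRKAR2B, SMC1B, MGAT4C and CDCA4. COL6A2, the alpha-2 chain of type VI collagen, measured 3.10, 2.55 and 2.56 CPM with both guides, 0.700, 0.756 and 0.653 with empty vector and 0.702, 0.548 and 0.606 in parental cells (1.93, SE 0.263, adjusted p = 0.00566, and 2.15, adjusted p = 0.0091). PRKAR2B, a regulatory subunit of protein kinase A, measured 1.91, 2.07 and 1.43 CPM against 0.578, 0.498 and 0.373 and against 0.105, 0.0783 and 0.217 (1.87 and 3.79, adjusted p = 0.0279 and 0.00343). Both were above all unedited libraries, with controls at different levels for PRKAR2B. SMC1B, a cohesin subunit of meiosis, was under 1 CPM throughout, at 0.607, 0.820 and 0.626 CPM against 0.158, 0.240 and 0.187 (adjusted p = 0.0367) and against 0.123 to 0.173 in parental cells (2.13, adjusted p = 0.0369). CDCA4, a cell-cycle associated nuclear protein, changed by a small amount in every library: 85.1, 89.6 and 91.5 CPM against 70.3, 68.4 and 64.7 and against 63.9, 63.5 and 66.5 (0.37 and 0.47, adjusted p = 0.0356 and 0.0198).

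MGAT4C, a glycosyltransferase-related gene, was close to silent without editing. It had 103 counts over the 3 both-guides libraries, 2 over the empty-vector libraries and 0 over the parental libraries. The ratio of its share of counts to that in empty vector was 53.7, with a 95% counting interval of 14.5 to 449. Guide 1 and guide 2 libraries held 4 and 1 counts, so the transcript was near 0 in all 4 other genotypes. The interval covers counting error only. The number of genes called against both controls ranged from 2 without both-guides replicate 3 to 89 without guide 2 replicate 2, and was 77 when only the groups compared were fitted.

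Some genes had opposite calls against the 2 controls. MAPK13, the p38-delta kinase, measured 6.66, 6.94 and 7.51 CPM with both guides, 10.8, 11.2 and 16.5 with empty vector and 3.67, 3.26 and 3.96 in parental cells (-0.89 and 0.97, adjusted p = 0.0224 and 0.0287). PDE3A, a cyclic nucleotide phosphodiesterase, was likewise between them, with differences of -2.24 and 4.49 (adjusted p = 0.0305 and 0.0445). The edited cells thus lay between the controls for both genes, which were picked out after their values were seen. The genes with the most negative change against parental cells included POSTN, the matrix protein periostin, at 7.74, 6.77 and 6.99 CPM against 63.1, 77.8 and 146 (-3.73, adjusted p = 0.0109). Its empty-vector levels of 16.3, 16.6 and 35.4 CPM were also above the edited ones (-1.70, adjusted p = 0.122). TLR4, the receptor for bacterial lipopolysaccharide, was higher than in parental cells (14.2, 13.6 and 12.8 CPM against 2.68, 1.80 and 1.86; 2.68, adjusted p = 0.0151) and differed from empty vector by 0.41 (adjusted p = 0.719). AKAP12, a scaffold for protein kinase A, gave the same order with 292, 324 and 347 CPM, 117, 106 and 137 in parental cells, and 248, 229 and 280 with empty vector (1.43, adjusted p = 0.00921, and 0.32, adjusted p = 0.471). POSTN, TLR4 and AKAP12 were chosen after their values were seen.

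Whether 2 guides gave a state different from 1 guide was tested against the mean of the guide 1 and guide 2 lines. Called were 57 genes (0.327%), 44 higher (0.252%) and 13 lower (0.0745%). Of the 57, 18 were also called against empty vector. JAM3 measured 6.01, 7.02 and 6.72 CPM with both guides, 0.115, 0.0760 and 0.111 with guide 1 and 1.25, 0.943 and 1.36 with guide 2 (4.24, adjusted p = 3.48e-07). Empty-vector cells held 2.89, 2.21 and 3.41 CPM and parental cells 3.89, 3.73 and 6.15, so every single-guide library lay below every unedited library and every both-guides library for JAM3. This call was kept in all 23 alternatives. C9orf64, picked out after its values were seen, had the same order: 2.39, 2.59 and 3.06 CPM with both guides, 2.38, 2.36 and 2.91 with empty vector and at most 0.127 in any single-guide library (5.72, adjusted p = 1.08e-07).

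MARCHF4, an E3 ubiquitin ligase, was lower with both guides (2.58, 2.48 and 2.81 CPM) than with guide 1 (7.47, 7.15 and 7.44) or guide 2 (9.05, 8.30 and 6.68; -1.56, adjusted p = 0.00811). PARVB, an adaptor of integrin-linked kinase, measured 11.9, 12.8 and 14.01 CPM with both guides (-0.85, adjusted p = 0.0222), below every single-guide library. GGT4P, a pseudogene whose reads may be shared with other gamma-glutamyltransferase genes, differed by -1.38 (adjusted p = 0.0275). CASC19, a long non-coding RNA gene, measured 38.5, 39.6 and 39.1 CPM with both guides, 10.3, 8.75 and 17.3 with guide 1 and 2.08, 8.86 and 2.11 with guide 2 (2.42, adjusted p = 0.0458). The number of genes that differed from the single-guide lines ran from 10 without both-guides replicate 3 to 847 without guide 2 replicate 2.

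Genes called lower lay more often in some chromosome regions than in others. The regions were chosen after the values were seen, and no test was made. Chromosome 6 held 25 of the 121 (922 genes tested), chromosome 3 beyond 90 Mb 12 (506 tested), chromosome 15 held 10 (583 tested) and chromosome 9 up to 20 Mb held 1 (60 tested). Together these 4 regions held 48 of the genes called lower, 2.32% of the 2071 tested there, against 0.474% of the 15386 tested elsewhere. The median log2 fold change of the more abundant genes was -0.19 on chromosome 6, -0.17 on chromosome 15, -0.18 on chromosome 3 beyond 90 Mb and -0.23 on chromosome 9 up to 20 Mb, against 0.01 over all 9608 such genes. In these 4 regions the empty-vector libraries departed from the others: on chromosome 6 their medians were 0.114, 0.119 and 0.193 above the median of the 15 libraries, and those of both guides were -0.001, -0.008 and -0.024. TNFAIP3, TAP1 and NOTCH4 lie on chromosome 6, and NFKBIZ on chromosome 3. In contrast, 4 of 7 tested genes at the end of the long arm of chromosome 11 (JAM3, THYN1, ACAD8 and GLB1L2) were called higher, with a region median of 0.62, and the empty-vector libraries were again the ones apart, at -0.594, -0.539 and -0.545. On other chromosomes libraries outside the comparison departed further: guide 2 replicate 2 and parental replicate 1 stood at 0.385 and 0.227 on chromosome 7 and at 0.364 and 0.310 on chromosome 13, and both enter the parental or single-guide comparisons. DNA copy number was not measured, and its part in these results was not tested.

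**Figure D5:**
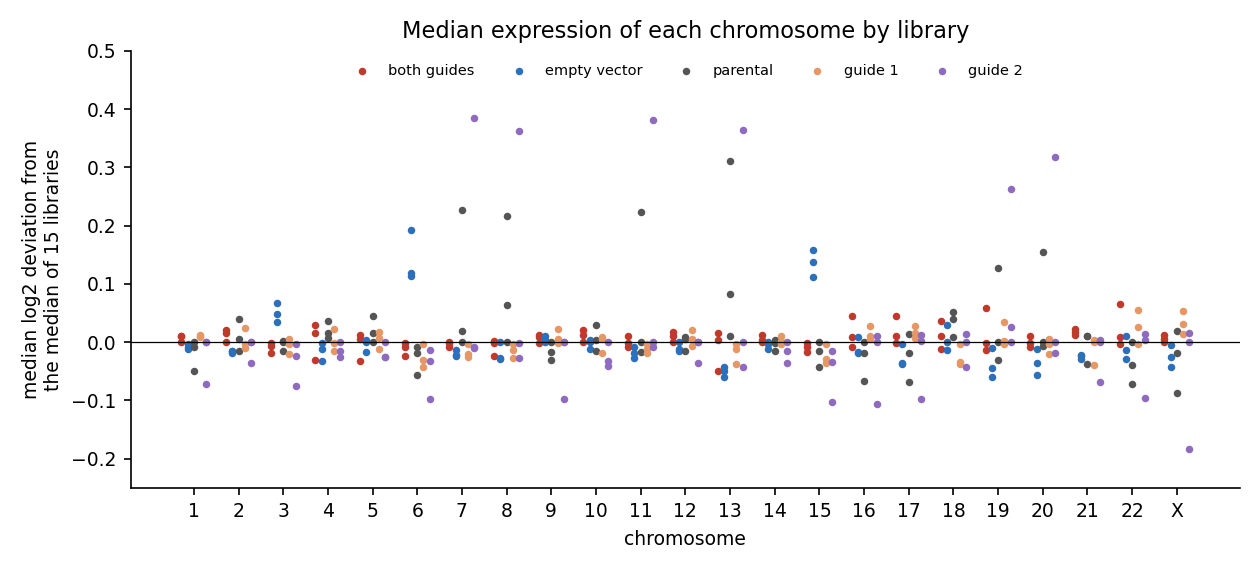
Median log2 deviation of each chromosome's more abundant genes from the median of the 15 libraries (vertical axis), with 1 point per library, coloured by genotype. On chromosome 6 the 3 empty-vector points lie between 0.114 and 0.193 while the both-guides points lie between -0.024 and -0.001.

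Marker genes were checked against the label. All 8 basal-type markers of MCF-10A were tested and present, with sums of 2116 to 2438 CPM in both-guides and 4029 to 5806 in empty-vector libraries, while PGR, CDKN2A and CDKN2B had no count in the 6 libraries and ESR1 was near 0.5 CPM. Of 6 leukocyte markers only CD14 was tested (6.57, 6.19 and 6.36 CPM against 5.99, 6.95 and 4.57), and CD3E was at 0. Of 4 endothelial markers 2 were tested and CDH5 had no count in the 6 libraries. The fibroblast markers, 5 of 7 tested, summed to 231.9 to 256.8 CPM against 103.3 to 145.9, which was mostly DCN, the proteoglycan decorin (245, 251 and 227 CPM against 127, 130 and 82.3; 1.07, adjusted p = 0.389). The other 4 tested fibroblast markers had negative fold changes, COL1A1 called among them, and the list median was -0.49. The part of any other cell type in the results was not tested. In bulk RNA, fewer cells of a kind and less RNA per cell cannot be told apart.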

How the data were processed

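Polyadenylated RNA from the 15 cultures was sequenced. Per the submitters' processing notes, Trim Galore 0.6.0, STAR 2.7.8a and the GRCh38 build were used; the annotation, counting program and strand setting are not given in the sources used here, so reads of overlapping genes cannot be told apart. The authors deposited whole-number read counts per gene for each library. The authors also deposited CPM values, which equalled each count divided by the library total (largest difference 4.91e-11) and hold no composition factor.

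The counts were fitted with edgeR 4.0.16 in R 4.3.3: TMM scaling, filterByExpr by genotype, 1 mean per genotype over all 15 libraries (10 residual degrees of freedom), quasi-likelihood tests, and Benjamini-Hochberg adjustment over 17457 genes, with genes called at adjusted p under 0.05. Every adjusted p in the text comes from this fit unless another is named. SE is the absolute log2 fold change over the square root of F. Levels are the deposited CPM. Total counts per library, from 46129559 up, set a floor of 3 counts at 0.065 CPM or less. Fitting 2-fold and 4-fold changes into simulated counts was used as a check of the scripts. Symbols and positions came from the table and GENCODE 29, promoters from RefSeq; 137 of 168 called genes had a promoter entry.

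Named genes were NF1; the 12 highest and 12 lowest called genes with a symbol, at least 2 CPM on average and no overlap; genes called against both controls; called members and up to 3 others of each list, by level or size of change; and the 4 highest and 4 lowest called against the single-guide lines. Others are said to be chosen after their values were seen. The groups compared, gene lists and marker lists were chosen with earlier results of these data known. Alternatives were RLE scaling, other filters, DESeq2 1.42.0, voom with quality weights (limma 3.58.1), robust fitting, a replicate block, a minimum change of 1 on the log2 scale, the compared groups alone and each library left out; leaving out guide 2 replicate 2 and parental replicate 1 together was chosen after seeing the data. Replicate numbers are not stated to mark a shared batch.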

Additional observations from a re-analysis of the deposited data

Results flagged for a closer look

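Of the genes named by the stated rule, 15 differed between the both-guides cells and the mean of the single-guide lines by the test of that difference itself (edgeR, adjusted p under 0.05). Values below are log2 differences, both guides minus single guides, and are given without explanation.

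The target was among them: NF1 was lower by a difference of -0.42 (adjusted p = 0.0402), and most alternatives lost that call. Lower too were MARCHF4, with -1.56, DENND2D, with -1.13, PARVB, with -0.85, and the pseudogene GGT4P, with -1.38. DENND2D and MARCHF4 were also called lower than empty vector, and DENND2D, PARVB and GGT4P were called lower than parental cells.

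Higher with both guides were the junction genes JAM3, at 4.24, and PLEKHA7, at 0.67. The genes higher than both controls gave 5.61 for MGAT4C, 1.64 for COL6A2, 1.52 for PRKAR2B and 0.34 for CDCA4. FPR1 differed by 2.72, SDCBP2 by 1.89, CMPK2 by 1.50 and the long non-coding RNA gene CASC19 by 2.42. CASC19 measured 38.5 to 39.6 CPM with both guides and differed from empty vector by 0.53 (adjusted p = 0.761). The single-guide mean includes guide 2 replicate 2, which held 8.86 CPM of CASC19 against 2.08 and 2.11 in its replicates.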

How the results depend on the processing

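The fall of NF1 was called in every alternative, from -2.22 to -2.09, with a highest adjusted p of 4e-06. None of the 40 named called genes changed direction; genes chosen after their values were seen were not followed through the alternatives. Counts of called genes moved with the settings. In this order, against empty vector, against both controls and against single guides, DESeq2 gave 680, 57 and 236, voom with quality weights 4666, 848 and 6594, the compared groups alone 3054, 77 and 34, and leaving out guide 2 replicate 2 and parental replicate 1 gave 1897, 128 and 1462. Leaving out 1 library gave 21 to 1196, 2 to 89 and 10 to 847; the lowest came without both-guides replicate 2, replicate 3 and replicate 3, and the highest without guide 2 replicate 2 each time. Without guide 1 replicate 3 they were 605 (319 higher, 286 lower, the reverse of the main balance), 15 and 208. A minimum change of 1 on the log2 scale left 83 genes against empty vector, and no filter gave 86 against single guides. RLE scaling gave 179, 9 and 59 and moved the median of all genes from -0.001 to -0.010.

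The replicate numbers did not pair the libraries: deviations of same-numbered libraries from their group means correlated at -0.034, -0.091 and -0.106. With a replicate block 69, 6 and 37 genes were called, and NF1 fell by 2.16 on the log2 scale (adjusted p = 3.1e-06); 23 of the 40 named called genes stayed called. Depth of at least 46129559 counts did not resolve genes near the floor of 0.065 CPM.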

Other observations

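Several genes outside the lists and rankings, chosen after their values were seen, add to the description of the edited cells. BCHE, butyrylcholinesterase, measured 2.69, 2.87 and 2.72 CPM with both guides against 0.0350, 0.0738 and 0.0187 with empty vector (log2 fold change 5.93, adjusted p = 0.00162), and 0.752 to 1.25 CPM in parental cells. SNAP25, a protein of synaptic vesicle fusion, differed by 5.54 and IL17RB, an interleukin-17 receptor, by 1.98 (adjusted p = 0.00851 and 0.0131). PYCARD, the inflammasome adaptor, was lower at 0.152, 0.178 and 0.0536 CPM against 1.24, 0.903 and 1.49 (-3.26, adjusted p = 0.0157). TNFSF15, a TNF family cytokine, measured 0.911, 0.713 and 0.787 CPM against 2.26, 2.45 and 4.55 (-1.97, adjusted p = 0.0305). PDPN, podoplanin, measured 75.4, 73.5 and 75.0 CPM against 103, 103 and 135 (-0.63, adjusted p = 0.0489).

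RELN, which encodes the matrix protein reelin, and OPCML, a cell adhesion molecule, had no count in the both-guides libraries and averaged 1.11 and 0.514 CPM with empty vector. They were at least 17-fold and at least 7.9-fold lower, with the floor at 3 counts per library.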
